A study of Rattus norvegicus with 6 samples.

Results

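The genes of cholesterol synthesis, its regulation and its efflux were followed in the hippocampus of amyloid-injected and sham-injected rats. The list held 32 genes, chosen by name but with earlier results of these data known. It comprised 19 enzymes from acetyl-CoA to cholesterol and geranylgeranyl diphosphate, 7 regulators and 6 genes of sterol transport, efflux, storage or turnover. A probe was matched to 30 of them, out of 15162 named genes with a probe on the array. No probe was matched to Srebf1 or Cyp46a1, so they have no value here. Soat1, which esterifies cholesterol for storage, was well above background on 1 of the 6 arrays and was not tested. The remaining 29 genes were well above background on all 6 arrays and were tested, among 11963 named genes tested in all. Each gene is represented by its probe with the highest mean signal.

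Total RNA of 6 hippocampal samples was read on 6 single-colour Agilent rat arrays. AD, with 3 samples, denotes male SD rats injected with Aβ1-42 oligomers in the cerebral ventricles. Sham, also with 3 samples, denotes male SD rats given only the vehicle, into both lateral ventricles. SD stands for Sprague Dawley, no age was given beyond adult, and the labels name no transgene. The labels do not tie each hippocampus to an animal, and the p-values therefore reflect only how much these samples varied. The comparison asks which transcripts differ in the hippocampus after the oligomers.

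Cholesterol does not cross the blood-brain barrier in useful amounts, so the brain makes its own, from acetyl-CoA through mevalonate, isoprenoid diphosphates, squalene and lanosterol. Transcription of the enzymes is driven by SREBP-2, the product of Srebf2, which leaves the endoplasmic reticulum with its escort SCAP when sterols are low and is held there by the INSIG proteins when they are high. Astrocytes pass cholesterol to neurons on particles carrying apolipoprotein E, loaded by the transporters ABCA1 and ABCG1, whose genes are targets of the liver X receptors Nr1h2 and Nr1h3.

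A level below is the log2 processed signal minus the 75th percentile of that array, so that 0 is the 75th percentile, and levels of different probes are not compared. Between 70.7% and 79.7% of probes were well above background on an array. The 75th percentile of the signal was 429 on Sham replicate 3 and ran from 753 to 932 on the other arrays. All 6 marker genes of the hippocampal subfields, Prox1, Wfs1, Neurod6, Fibcd1, Calb1 and Neurod2, were above background on all 6 arrays. The AD arrays were scanned together, Sham replicates 1 and 2 in another scan on the same day and Sham replicate 3 on another day. Choroid plexus markers were far higher on AD replicates 1 and 3 than on the other arrays, with a median difference from the Sham mean of 3.43, 0.68 and 4.26 log2 units on AD replicates 1 to 3. Because this is bulk tissue, fewer cells of a type and less RNA per cell cannot be told apart.

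Of the 19 enzymes of cholesterol synthesis, 7 fell and 1 rose in AD. None of the 10 tested genes of regulation, transport and efflux was called. With so few genes, 0 calls cannot be told apart from the 12.5% of all tested probes that were called. Msmo1, Hmgcs1 and Sqle fell most, by 1.78-, 1.54- and 1.46-fold, and Sc5d rose 1.76-fold. Of the 29 genes tested, 7 were lower in AD and 1 was higher at an adjusted p under 0.05 (limma, Benjamini-Hochberg over all tested probes), and all 8 were synthesis enzymes. An unadjusted p under 0.05 was found for 13 of the 29 genes and for 31.3% of all tested probes. The 7 lower genes are 24.1% of those tested, against 8.39% of all 22818 tested probes called lower. The 1 higher gene is 3.45% of them, against 4.15% of all tested probes, and 12.5% of all tested probes were called in either direction. Bright probes were called lower more often than dim ones over the whole array. Among the 19 genes with a mean level above 0, 6 were called lower (31.6%), against 15.8% of all tested probes with a mean level above 0, and 0 were called higher, against 2.56%. Since the list was chosen with earlier results known, these shares describe it and are not a test of it.

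The change was below 0 for 17 of the 19 synthesis enzymes, with a median of -0.27 log2 units, against -0.01 for all tested probes. With the arrays scaled to the 75th percentile of their detected probes, 4 of these 17 turned to just above 0 and the median was -0.19, against 0.07 for all tested probes. The change was below 0 for 4 of the 10 other genes tested, with a median of 0.06. All 3 AD values lay below all 3 Sham values for 10 of the synthesis enzymes, where 23.4% of all tested probes showed this, and for 1 of the 10 other genes. These medians and counts were set against all tested probes and not against probes of like brightness. The reverse held for 3 of the 29 genes, Sc5d, Insig1 and Abca1, against 15.6% of all tested probes. On the single arrays the median enzyme lay 0.35, 0.27 and 0.30 log2 units below the Sham mean on AD replicates 1, 2 and 3.

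**Figure D1:**
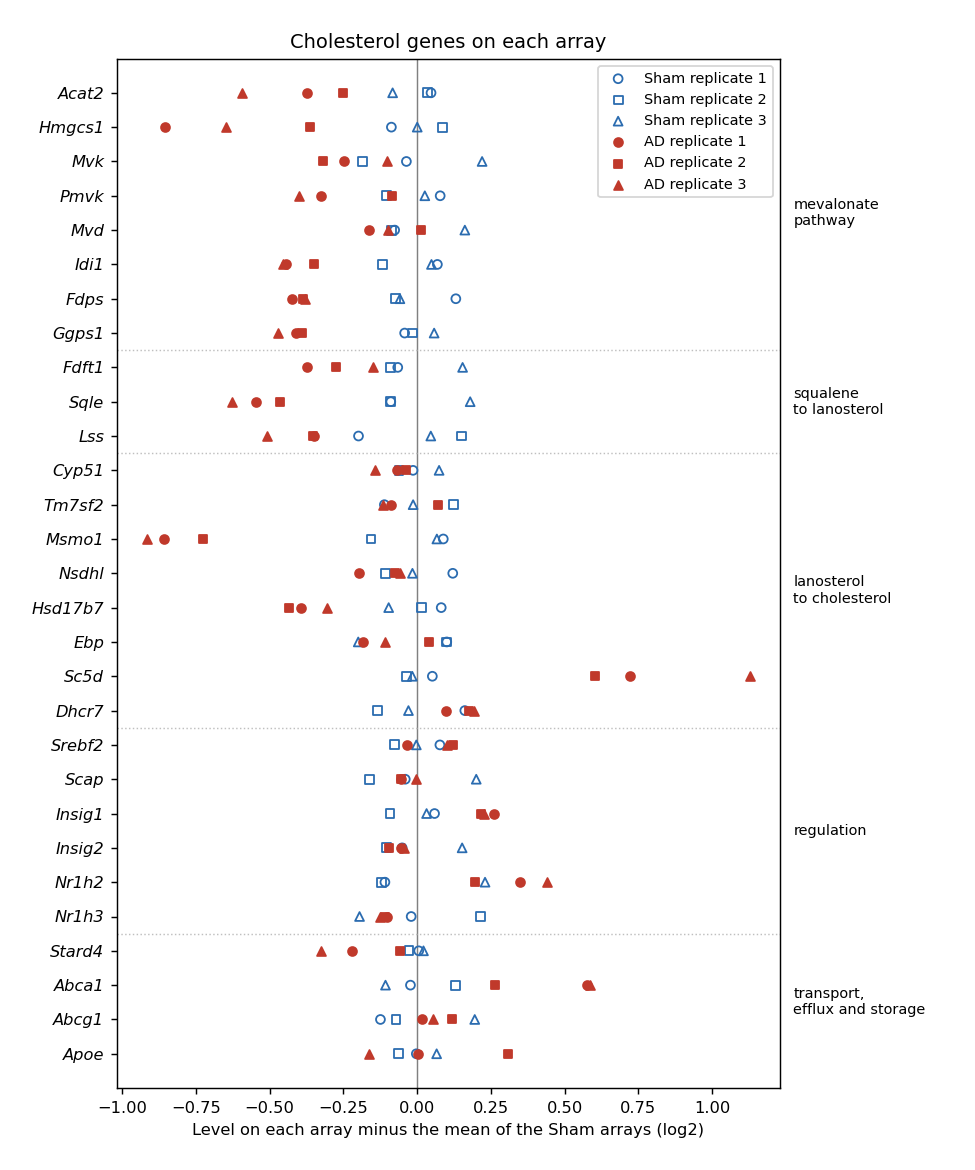
Levels of the 29 tested genes by array, with the Sham mean of the gene subtracted (horizontal axis, log2), with filled symbols for AD and open symbols for Sham replicates and genes ordered by place in the pathway. Msmo1 and Hmgcs1 lie farthest to the left of the Sham arrays and Sc5d farthest to the right.

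The mevalonate branch had 4 of its 8 enzymes called lower, against 8.39% of all tested probes. The change was below 0 in all 8, with a median of -0.40. Hmgcs1, the HMG-CoA synthase at the entry of the pathway, had levels of 4.59, 5.08 and 4.80 on AD replicates 1 to 3 and of 5.36, 5.53 and 5.45 on Sham replicates 1 to 3. The groups did not overlap, and AD replicate 2 lay nearest to Sham. The difference was -0.62 ± 0.14 (SE, n = 3 per group, 95% interval -0.97 to -0.27, adjusted p = 0.043), which is 1.54-fold lower in AD. Without Sham replicate 3 the difference was the same size at -0.62 but missed the threshold (adjusted p = 0.0574).

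The 3 enzymes that make and join the isoprenoid units moved by similar amounts. Idi1, the isopentenyl diphosphate isomerase, was at 2.32, 2.41 and 2.30 on the AD arrays and at 2.83, 2.64 and 2.81 on the Sham arrays. The difference was -0.42 ± 0.09 (SE, adjusted p = 0.0401). Fdps, which makes farnesyl diphosphate, was at 1.25, 1.29 and 1.30 in AD and at 1.81, 1.60 and 1.62 in Sham. Its AD arrays lay within 0.05 of each other, and Sham replicate 1 was the highest. The change of Fdps was -0.40 ± 0.09 (SE, adjusted p = 0.0442), and a second, dimmer probe of the gene gave -0.50 with an adjusted p of 0.0535. Ggps1 sits on the branch to geranylgeranyl diphosphate, which is used to prenylate proteins and not to make sterol. It was at -0.79, -0.77 and -0.85 on the AD arrays against -0.42, -0.40 and -0.32 on the Sham arrays, 1.34-fold lower with a difference of -0.42 ± 0.08 (SE, adjusted p = 0.0298). In all 3 genes every AD array lay below every Sham array, against 23.4% of all tested probes.

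The other 4 mevalonate enzymes did not pass the test. Acat2, the cytosolic thiolase that begins the route, came closest at -0.41 (adjusted p = 0.0684), with the AD arrays all below the Sham arrays. Pmvk and Mvk, the kinases that phosphorylate mevalonate, were at -0.27 and -0.22, and Mvd, the decarboxylase that follows them, was at -0.08. The groups overlapped for these last 3.

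Between farnesyl diphosphate and lanosterol, all 3 AD values lay below all 3 Sham values for each of the 3 enzymes, against 23.4% of all tested probes. Of these 3 enzymes 1 was called lower, against 8.39% of all tested probes. Sqle, the squalene epoxidase that is a rate-limiting step of the sterol branch, was at 3.29, 3.38 and 3.21 on the AD arrays and at 3.75, 3.75 and 4.02 on the Sham arrays. Sham replicate 3 was the highest, and the groups did not overlap. Sqle fell by 0.55 log2 units (SE 0.11, 95% interval -0.81 to -0.28, adjusted p = 0.0333), or 1.46-fold. Lss, the lanosterol synthase, was at -0.40 (adjusted p = 0.0769) and Fdft1, the squalene synthase, at -0.27 (adjusted p = 0.164).

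The largest differences of the list, in opposite directions, were among the 8 enzymes that turn lanosterol into cholesterol. Msmo1, the methylsterol monooxygenase that removes methyl groups from the sterol ring, was at 3.57, 3.70 and 3.51 in AD and at 4.52, 4.27 and 4.49 in Sham. The highest AD array lay well under the lowest Sham array. Msmo1 was 1.78-fold lower in AD, a difference of -0.83 ± 0.11 (SE, 95% interval -1.09 to -0.57, adjusted p = 0.0194). Hsd17b7, a sterol ketoreductase of the same demethylation steps, was at 0.29, 0.25 and 0.38 in AD and at 0.76, 0.70 and 0.59 in Sham. The groups did not overlap, and the difference was -0.38 ± 0.09 (SE, adjusted p = 0.0477).

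Sc5d, the desaturase that acts on lathosterol near the end of the route, went the other way. It was at -0.13, -0.24 and 0.28 on the AD arrays and at -0.79, -0.88 and -0.86 on the Sham arrays. The Sham arrays lay close together and the AD arrays were spread, with AD replicate 3 the highest. Sc5d rose by 0.82 ± 0.15 log2 units (SE, 95% interval 0.45 to 1.18, adjusted p = 0.0282), or 1.76-fold. AD replicate 2, the lowest of its AD arrays, was also the AD array with the lowest choroid plexus markers, by median and by summed level. With AD replicate 2 as the sole AD array, an alternative chosen after the data were seen, Sc5d was 0.60 above the Sham mean, and the part of choroid plexus tissue in it was not tested. None of the 5 other enzymes of this stretch was called. Nsdhl was at -0.11, Cyp51 at -0.08, Ebp at -0.08, Tm7sf2 at -0.04 and Dhcr7, the last reductase, at 0.16, and the groups overlapped for all 5. For Cyp51, Ebp, Tm7sf2 and Mvd the sign changed under another scaling, so no direction is given for them.

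**Figure D2:**
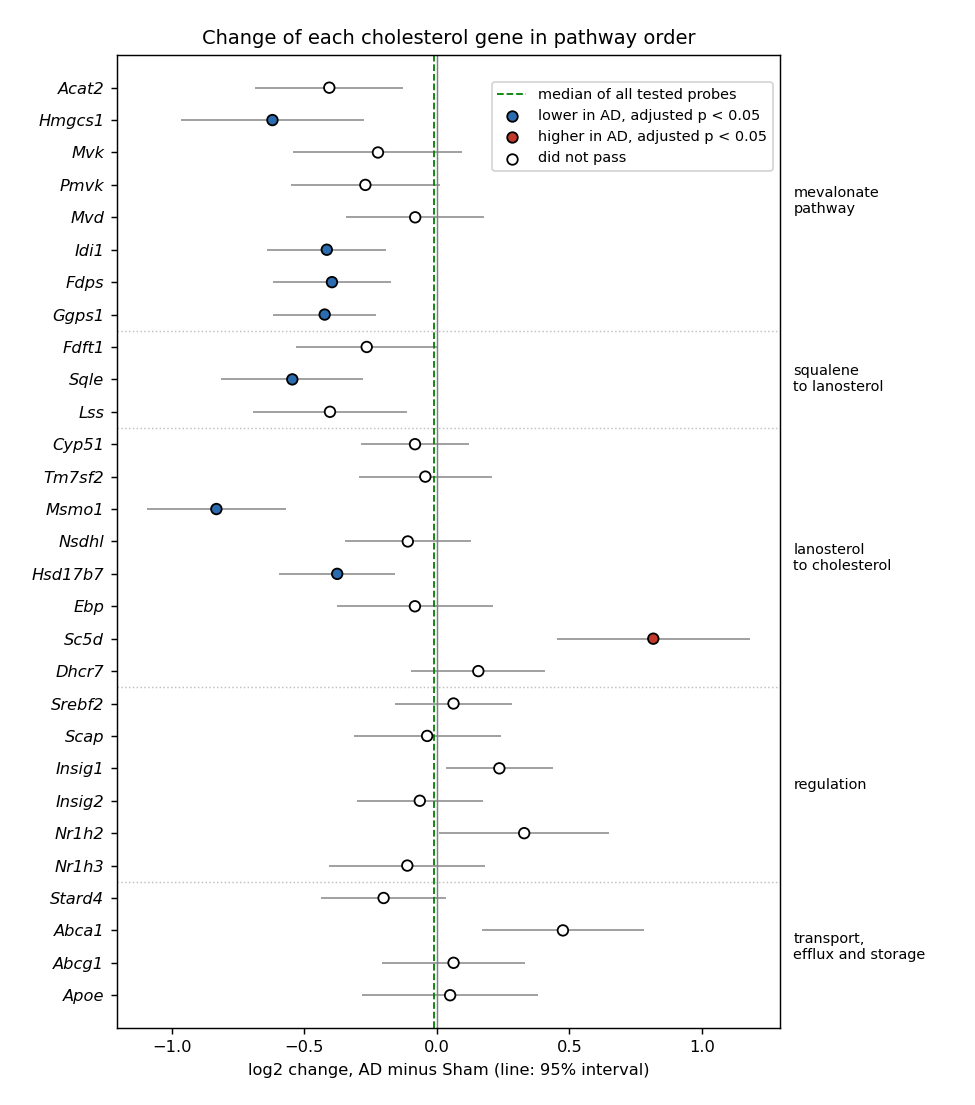
Difference between AD and Sham for each tested gene (horizontal axis, log2), in pathway order, with its 95% interval as a line and 3 arrays per group. The 7 blue points are the enzymes called lower, the red point is Sc5d, and the dashed line is the median of all tested probes at -0.01.

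Promoter sequences, from 250 bases before to 50 bases after the start, are shown for the 4 called genes with the largest changes that have one in the table, because SREBP-2 and its partner factors bind boxes near the start of these genes. A promoter was found for 27 of the 32 genes, Srebf1, Cyp46a1 and Soat1 among them, and all 27 were searched. The sequences are RefSeq's on the rat assembly GRCr8, 5′ to 3′ in the direction of the gene, and capitals mark CCAAT, the box of the factor NF-Y, or its reverse complement ATTGG. They lie at chr16:29746863-29747162 on the plus strand for Msmo1, at chr8:51538228-51538527 on the minus strand for Sc5d, at chr2:53382054-53382353 on the plus strand for Hmgcs1 and at chr17:55958500-55958799 on the plus strand for Ggps1.
Msmo1: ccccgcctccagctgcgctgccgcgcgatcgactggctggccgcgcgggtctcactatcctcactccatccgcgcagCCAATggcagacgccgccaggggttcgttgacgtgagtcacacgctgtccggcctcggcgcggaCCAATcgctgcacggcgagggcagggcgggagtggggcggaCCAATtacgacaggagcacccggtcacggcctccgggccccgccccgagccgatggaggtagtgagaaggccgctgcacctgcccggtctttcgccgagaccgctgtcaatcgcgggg
Sc5d: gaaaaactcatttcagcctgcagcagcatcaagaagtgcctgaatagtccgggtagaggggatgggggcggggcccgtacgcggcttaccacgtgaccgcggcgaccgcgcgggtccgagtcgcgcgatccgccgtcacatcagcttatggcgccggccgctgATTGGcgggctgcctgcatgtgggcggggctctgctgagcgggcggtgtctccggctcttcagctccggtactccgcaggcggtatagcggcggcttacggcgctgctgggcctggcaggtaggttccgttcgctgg
Hmgcs1: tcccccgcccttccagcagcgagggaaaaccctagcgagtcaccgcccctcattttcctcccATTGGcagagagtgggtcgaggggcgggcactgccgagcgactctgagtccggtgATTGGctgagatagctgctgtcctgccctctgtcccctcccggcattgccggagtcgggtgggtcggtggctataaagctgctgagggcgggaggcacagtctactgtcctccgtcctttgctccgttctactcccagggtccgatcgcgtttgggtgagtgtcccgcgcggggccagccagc
Ggps1: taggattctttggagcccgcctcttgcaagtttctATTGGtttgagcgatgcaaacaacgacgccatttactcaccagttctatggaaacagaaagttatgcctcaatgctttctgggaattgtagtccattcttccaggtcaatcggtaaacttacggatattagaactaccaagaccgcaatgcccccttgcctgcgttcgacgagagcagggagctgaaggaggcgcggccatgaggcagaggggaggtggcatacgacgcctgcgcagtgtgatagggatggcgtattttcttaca
Msmo1 and Sc5d, which changed in opposite directions, both hold the box in this window. It was found in 19 of the 27 promoters (70.4%), against 38.0% of the promoters of all genes tested on the array, and in 7 of 7 promoters of called genes, Sc5d included. Among synthesis enzymes with a promoter, called or not, 13 of 16 held it. Sqle, also called, had no promoter to search. GGGCGG, the box of Sp1, was found in 20 of the 27 (74.1%), against 57.0%. The sterol regulatory element, searched as TCACNCCAC on both strands, was found in 0 of the 27, against 1.14% of promoters of tested genes. The DR4 element of the liver X receptors was found in 0 of the 27. It was also in 0 of the 9777 promoters of tested genes, so this search could not set the list apart. Both absences say only that these letters are not in this window. A match describes the letters and not a bound factor.

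None of the 6 regulators tested was called, against 12.5% of all tested probes. For 2 of them the unadjusted p was under 0.05, against 31.3% of all tested probes. Srebf2 was at 3.88, 4.04 and 4.02 on the AD arrays and at 3.99, 3.84 and 3.91 on the Sham arrays. The groups overlapped. The difference of 0.06 had a 95% interval of -0.16 to 0.28 (adjusted p = 0.677), so a change of either sign up to about that size was not resolved by 3 arrays per group. Insig1, which holds SCAP back and is itself a target of SREBP-2, was at 1.60, 1.56 and 1.57 in AD and at 1.40, 1.25 and 1.38 in Sham. All AD arrays lay above all Sham arrays, in the opposite direction to most enzymes. The difference of 0.24 ± 0.08 (SE, 95% interval 0.03 to 0.44) did not pass the test (adjusted p = 0.116). Nr1h2, a liver X receptor, was at 0.33 with an adjusted p of 0.151, and without Sham replicate 3 it was at 0.44 and passed (adjusted p = 0.0395). Nr1h3, the other receptor, was at -0.11, and Scap and Insig2 were at -0.04 and -0.06, with signs that changed under other scalings.

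The 4 tested genes of transport and efflux gave no call either, against 12.5% of all tested probes. Abca1, the transporter that loads cholesterol onto apolipoproteins, was at -3.33, -3.65 and -3.32 on the AD arrays and at -3.93, -3.78 and -4.02 on the Sham arrays. The AD arrays all lay above the Sham arrays, with AD replicate 2 the closest to them. The difference was 0.48 ± 0.13 (SE, adjusted p = 0.0591). The probe was dim, and with a normexp background correction the difference shrank to 0.02.

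Abcg1, the partner transporter, was at 2.07, 2.17 and 2.10 in AD and at 1.93, 1.98 and 2.25 in Sham, a difference of 0.06 (95% interval -0.21 to 0.33, adjusted p = 0.736). Apoe was at 5.32, 5.62 and 5.15 in AD and at 5.31, 5.25 and 5.38 in Sham. AD replicate 2 was the highest and AD replicate 3 the lowest of the 6 arrays, and the difference of 0.05 (95% interval -0.28 to 0.38, adjusted p = 0.834) changed sign under median scaling. Stard4, a sterol carrier protein, was at -0.20 on its brighter probe and at 0.20 on a second one, and neither passed.

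Of a wider list of 46 other cholesterol genes, 37 were tested, 5 were called higher and 3 lower, and the median change was 0.15. That is 13.5% called higher, against 4.15% of all tested probes, and 8.11% called lower, against 8.39%. Among the 8 called genes, the 6 with the largest changes are named below, followed by the remaining 2. Lcat, which esterifies cholesterol on lipoproteins, was at -0.28, -0.20 and -0.32 on the AD arrays and at -1.02, -0.98 and -0.78 on the Sham arrays, and rose by 0.66 log2 units. Clu, the apolipoprotein clusterin, rose by 0.54. Pltp, a phospholipid transfer protein, rose by 0.50, and Osbp, an oxysterol-binding protein, rose by 0.49.

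Abcg4, a neuronal sterol transporter, was at 2.96, 3.12 and 2.87 in AD and at 3.57, 3.52 and 3.72 in Sham, and fell by 0.62. Nceh1, a cholesteryl ester hydrolase, fell by 0.58. In these 6 the groups did not overlap, and their adjusted p ran from 0.0215 to 0.0484. The remaining 2, outside the naming rule and added after their values were seen, were Dhdds, of the dolichol branch, at -0.44 and Aacs, which makes acetoacetyl-CoA, at 0.36. Of 14 tested genes of fatty acid synthesis, a pathway that SREBP proteins also drive, 3 were called lower and 0 higher. That is 21.4% called lower, against 8.39% of all tested probes, and 0% called higher, against 4.15%. They were Me1 (-0.61), Acaca (-0.50) and Acly (-0.39), which feed or begin fatty acid synthesis. The Acaca probe was dim, at -5.18 in AD and -4.68 in Sham, and was well above background on 5 of the 6 arrays. The median of these 14 genes was -0.02.

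Neuronal markers were lower in AD. Of the 10 markers of mature oligodendrocytes, 9 changed upward, Mbp was at -0.33, and the groups overlapped for 6. Of 7 tested neuronal markers 5 were called lower, with a median change of -0.51, and their summed level on a linear scale ran from 65.1 to 67.9 on the AD arrays and from 83.6 to 100 on the Sham arrays. Astrocyte markers, of the cells that make much of the brain's cholesterol, had 0 of 8 called, a median of -0.22 and summed levels of 193 to 229 in AD and 219 to 259 in Sham. Of 10 markers of mature oligodendrocytes, which also make cholesterol in quantity, 4 were called higher, with a median of 0.39. On the single arrays their median difference from the Sham mean was 0.42, 0.29 and 0.42 in AD and -0.005, -0.11 and 0.10 in Sham. Their summed level overlapped, at 106 to 126 in AD and 116 to 168 in Sham, but most of it came from the Mbp probe. Choroid plexus markers had 0 of 8 called, yet all 8 changed upward, with a median of 2.53. For 4 of them the AD values all lay above the Sham values, against 15.6% of all tested probes. Their summed levels, mostly from the Ttr probe, were 81.1 to 137 in AD and 27.2 to 102 in Sham. Skeletal muscle markers had 0 of 7 called, and all 7 changed upward, with a median of 1.90. Their summed levels were 1.91 to 4.81 in AD and 0.825 to 1.61 in Sham. Of 5 blood markers 2 were called lower, and of 8 markers of endothelium and pericytes 3 were called higher. Microglia and ependyma had none called (0 of 7 and 0 of 4), and 1 of 6 subfield markers, Fibcd1 of the CA1 field, was called lower. The part of any of these markers in the enzyme levels was not tested.

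**Figure D3:**
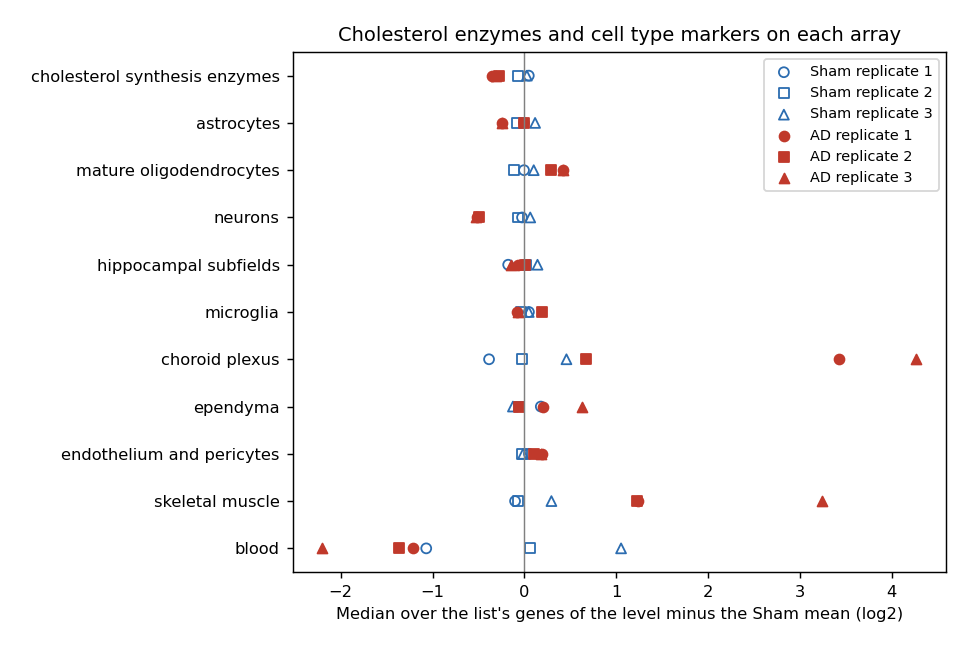
Median over each list of the level minus the Sham mean (horizontal axis, log2) on each array, for the 19 synthesis enzymes and for 10 sets of cell type or tissue markers, with filled symbols for AD and open symbols for Sham. The enzymes, the neuronal markers and the blood markers lie left of all Sham arrays on all 3 AD arrays. The choroid plexus markers stand apart on AD replicates 1 and 3.

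The called enzymes were refitted under 21 alternatives, of which 20 were different fits, since scan day as a block and leaving out Sham replicate 3 are the same fit here. Quantile normalization and the authors' table gave nearly the same estimates, for Msmo1 -0.641 and -0.639, so these fits add little to each other. The estimate itself can move in only 14 of them (15 for Fdps), and in those all 8 genes kept their sign. Of the 20 fits, Msmo1 and Ggps1 passed the test in 10, Sqle and Sc5d in 9, Idi1 in 6, Fdps and Hsd17b7 in 5 and Hmgcs1 in 4. Each of these counts includes the fit with array weights, whose estimation did not converge. Hmgcs1 otherwise passed only under median scaling, the filter for all arrays and the mean of a gene's probes. The filter and the probe mean left its estimate unchanged. Leaving out AD replicate 1, AD replicate 2, AD replicate 3, Sham replicate 1 or Sham replicate 2 left 0 of the 29 genes called. Without Sham replicate 3, which leaves the arrays of 1 scan day, 6 were called lower and 2 higher. With the scan as a random block 0 were called, and the adjusted p of the 8 genes ran from 0.178 to 0.297. Scan and group cannot be told apart within that day, since each scan held arrays of 1 group.

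**Figure D4:**
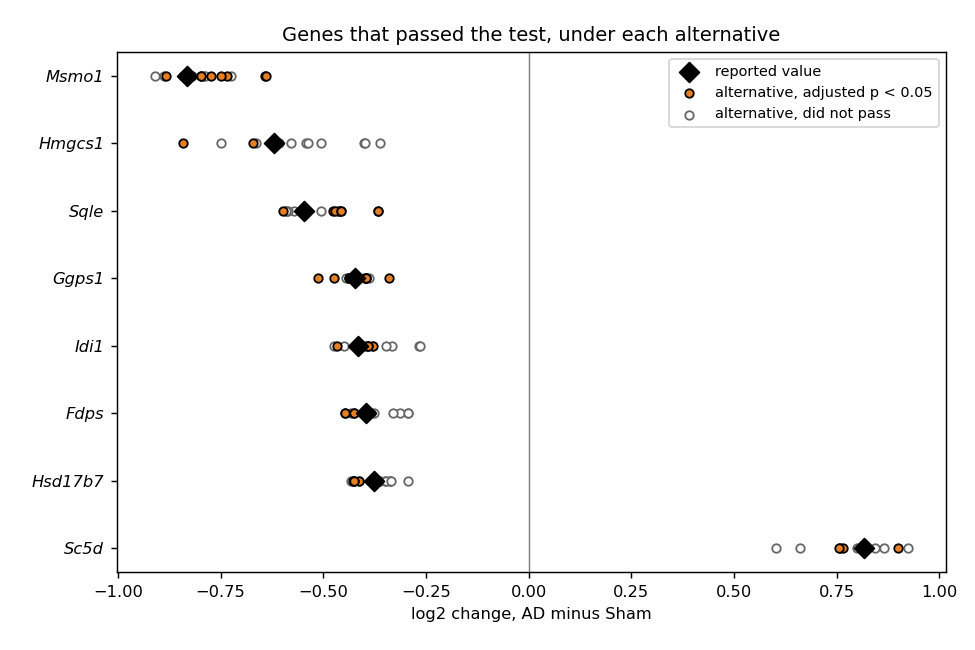
Difference between AD and Sham (horizontal axis, log2) of the 8 called enzymes as reported (diamonds) and under each alternative (circles, some of which coincide), filled where the adjusted p was under 0.05. No circle crosses 0, with Msmo1 between -0.91 and -0.64 and Sc5d between 0.60 and 0.92, while many circles are open.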

How the data were processed

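Gene expression was measured in 6 rat hippocampal samples, grouped by the sample labels. The deposited scanner output, made with Agilent Feature Extraction 11.0.1.1, holds for each spot a background-subtracted intensity. The authors also deposited a log2 value table of unstated scaling, in which every column had a median of 6.57 and the columns of AD replicates 2 and 3 were exchanged relative to the scanner output. It served only as an alternative. Control spots and flagged outlier spots (400 to 559 per array) were left out, none were saturated, and spots of a probe were averaged. Accessions were matched to RefSeq symbols, which named 17997 of 30367 probes (59.3%). Log2 signals minus each array's 75th percentile were fitted in R 4.3.3 with limma 3.58.1 (lmFit, then eBayes), with no covariate, over the 22818 probes well above background on at least 3 arrays, with two-sided p-values and a threshold of 0.05 after Benjamini-Hochberg adjustment. The fit was tested on simulated data with independent arrays and no scan effect, so that test does not bear on differences between scans. The number of arrays limits the precision.

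Values on every array are given for called genes and for Hmgcs1, Sqle, Srebf2, Insig1, Abca1, Abcg1 and Apoe, and other called cholesterol or fatty acid genes are named up to 6 a list by size. The genes, lists and tests were chosen with earlier results of these data known. Some enzymes and receptors of the pathway are not reported here. Alternatives covered background correction (normexp on the median signal, offset 50), scaling, filters, blocks, array weights, probe choice and left-out arrays.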

Additional observations from a re-analysis of the deposited data

How the results depend on the processing

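The number of genes called depended on the processing more than the sizes did. Against 2863 probes, 7 list genes lower and 1 higher, and 8 other cholesterol and 3 fatty acid genes, normexp called 1768 probes, 4 genes lower and 1 fatty acid gene. Quantile normalization and the authors' table each called 3 genes lower. Scaling to the 75th percentile of detected probes called 3 lower and 2 higher, with a list median of -0.027, and keeping only probes above background on all arrays called 2 higher. Array weights, whose estimation did not converge and which gave AD replicate 1 a weight of 8.23, called 9883 probes, 14 genes lower, 4 higher, 22 other cholesterol genes and 7 fatty acid genes. Scan day as a block, the same fit as without Sham replicate 3, called 4453 probes and 2 genes higher. The methods' t-test called 1845 probes, 3 genes lower and 0 higher after Benjamini-Hochberg adjustment, and by the methods' own rule, a 2-fold change with an unadjusted p under 0.05, it called 329 probes and 0 of the list.

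No probe at all (0) was called by limma without a filter on dim probes, with scan as a random block, or with slide position as a block, and so 0 genes of each list, although 7091, 3671 and 6489 probes had an unadjusted p under 0.05. Without AD replicates 1 and 3, where the spread comes from the Sham arrays alone and the 1 AD array is assumed to vary like them, 0 probes and 0 genes of each list were called, with 2354 probes at an unadjusted p under 0.05. Without the filter the lowest adjusted p lay just above the threshold. Replicate numbers were shared but did not pair the arrays (correlations of same-numbered arrays 0.03, 0.07 and 0.14, and AD replicate 1 correlated best with Sham replicate 2). The replicate block called 0 probes and 0 genes of each list, with 6489 probes at an unadjusted p under 0.05. Leaving out 1 array called 0 to 4453 probes, 0 to 6 genes lower, 0 to 2 higher, 0 to 11 other cholesterol genes and 0 to 3 fatty acid genes, with calls without Sham replicate 3 and 2 probes without AD replicate 3.

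The split of calls moved, with 33.1% of called probes higher as reported, 17.5% under the normexp background correction, 38.3% under quantile normalization, 24.2% under median scaling and 53.2% for detected probes. It was 46.1% with array weights and 44.7% by scan day. Under normexp the median of all tested probes was -0.15, so the list median of -0.14 did not stand below it, while the synthesis enzymes stood at -0.31.

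Signs that turned were of small changes. For detected probes Mvd was at 0.0012, Cyp51 at 0.00046, Tm7sf2 at 0.039, Ebp at 0.00016, Scap at 0.046 and Insig2 at 0.019. Quantile normalization put Cyp51 at 0.043, Ebp at 0.026 and Scap at 0.073, and the authors' table put them at 0.044, 0.027 and 0.073. Array weights put Scap at 0.059 and Insig2 at 0.017, and scan day at 0.063 and 0.012. Without AD replicates 1 and 3, Mvd was at 0.013, Tm7sf2 at 0.070 and Ebp at 0.042. Median scaling put Apoe at -0.0012. With 1 array left out Apoe ran from -0.079 to 0.16, Insig2 from -0.12 to 0.012, Scap from -0.12 to 0.063 and Tm7sf2 from -0.10 to 0.018. The causes were not tested.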
